A study of Mus musculus with 4 samples.

Results

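The subject is a set of 10 mouse genes of macrophage lipid handling, taken from 31053 counted genes: Fabp4, Fabp5, Lpl, Cd36, Plin2, Trem2, Gpnmb, Apoe, Abca1 and Abcg1. They were chosen by name, with earlier results of these libraries in view, and were read by myeloid cell class and library together with Spp1, which encodes osteopontin. Counts of unique molecular identifiers (UMIs) came from 3' single-cell libraries of live CD45-positive lung cells of C57BL/6 mice at day 14. The groups, with 1 library each, were tumor Rab37 KO (Rab37-deficient mice bearing LLC cells, a mouse Lewis lung carcinoma line), tumor WT (wild-type mice bearing LLC cells), normal Rab37 KO (Rab37-deficient mice given Matrigel alone) and normal WT (wild-type mice given Matrigel alone). Rab37 is a small GTPase of vesicle traffic, and the number of animals behind a library and the kind of allele are not given in the sources used here. Because each group is 1 library, no test was made. Levels are CPM, the UMIs of a gene per 1000000 summed UMIs of a class, and every interval is an exact 95% interval for counting error alone.

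Macrophages take up fatty acids and lipoproteins, store surplus lipid in droplets and export cholesterol to lipoprotein acceptors. Lipid-laden or debris-clearing macrophages of fat tissue, brain, atheroma and tumors are known to express Trem2, Gpnmb, Fabp5 and Spp1 together, whereas alveolar macrophages clear surfactant lipid and depend on the nuclear receptor PPARγ and on cholesterol efflux. Cholesterol loading is sensed by liver X receptors, nuclear receptors that bind direct repeats of a short hexamer and switch on Abca1, Abcg1 and Apoe.

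On build mm10 the genes lie apart except for a few pairs. Fabp4 (chr3:10204088-10208576) and Fabp5 (chr3:10012548-10016607) lie in the same region, on opposite strands. Trem2 (chr17:48346401-48354147) and Abcg1 (chr17:31057675-31117988) share a chromosome, as do Abca1 (chr4:53030787-53159895) and Plin2 (chr4:86648386-86670060). Lpl lies at chr8:68880491-68907448, Cd36 at chr5:17781690-17888801, Gpnmb at chr6:49036546-49070929 and Apoe at chr7:19696109-19699188.

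RefSeq promoter windows (GRCm38.p6) were held for 6 of the 10 genes: Abca1, Apoe, Cd36, Gpnmb, Plin2 and Trem2. The 250 bases before the start are shown for Abca1, the member whose level ran against most others in the tumor comparison, and for Trem2, a member that was lower there. Capitals mark motif letters found on either strand. In Abca1 they are an E-box (CACGTG) and the direct repeat known as the liver X receptor element of this gene, here read on the opposite strand 67 to 53 bases before the start. In Trem2 they are a nuclear receptor hexamer (AGGTCA, opposite strand) and an AP-1 motif (TGANTCA).
Abca1, chr4:53159896-53160145, minus strand: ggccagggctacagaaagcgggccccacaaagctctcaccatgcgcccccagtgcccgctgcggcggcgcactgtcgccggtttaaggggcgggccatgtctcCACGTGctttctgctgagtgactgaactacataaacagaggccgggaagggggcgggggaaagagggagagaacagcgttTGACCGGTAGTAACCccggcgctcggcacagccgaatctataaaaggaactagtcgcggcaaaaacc
Trem2, chr17:48346151-48346400, plus strand: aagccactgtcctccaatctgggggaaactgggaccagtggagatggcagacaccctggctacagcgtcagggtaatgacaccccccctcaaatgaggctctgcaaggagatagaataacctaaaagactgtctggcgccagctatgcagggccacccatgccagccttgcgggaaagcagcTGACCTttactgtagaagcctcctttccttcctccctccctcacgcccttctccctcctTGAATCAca
Over all 32851 RefSeq windows of 300 bases, the Abca1 repeat was found in 4 (0.0122%), the hexamer in 16.3%, the E-box in 7.15% and the AP-1 motif in 7.81%. Among the 6 windows held, the hexamer was also in those of Cd36 and Plin2, the E-box in that of Plin2 and the AP-1 motif in that of Gpnmb. The textbook repeat of that hexamer with 4 letters between, which contains it, was in none of them and in 5 windows overall (0.0152%). These are letter matches in a fixed window and say nothing of binding.

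After filtering, 2725 tumor Rab37 KO, 644 tumor WT, 4646 normal Rab37 KO and 5063 normal WT cells remained, with median depths of 6556, 3979, 5486 and 5053 UMIs. Rab37 stood at 0.266 CPM in tumor Rab37 KO and 4.63 CPM in tumor WT, and at 0.385 CPM in normal Rab37 KO and 8.50 CPM in normal WT. Sex-linked transcripts split the tumor libraries. In tumor Rab37 KO, UMIs of Y-linked genes without Xist were found in 1662 cells and Xist without Y-linked genes in 33. In tumor WT these numbers were 0 and 417, so genotype and sex cannot be told apart in the tumor comparison. Both normal libraries held cells of both kinds. Libraries shared 0 to 8 cell barcodes per pair.

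Macrophage-like cells numbered 165 in tumor Rab37 KO, 157 in tumor WT, 139 in normal Rab37 KO and 127 in normal WT. C1qa, a complement subunit, stood between 1389 and 2971 CPM in the 4 libraries. Of the 12 markers that named the class, Lyve1 stood at 109 CPM in tumor Rab37 KO and at 0 in tumor WT. Folr2 stood at 173 CPM in tumor Rab37 KO and 7.91 CPM in tumor WT, the mannose receptor Mrc1 at 1092 CPM and 143 CPM, and Pf4 at 1928 CPM and 408 CPM. The class joined cells led by Gpnmb, Syngr1, Mmp12 and Trem2 (76, 150, 16 and 10 cells in the same library order) with cells led by C1q genes, Ccl12 and Fcrls (89, 7, 123 and 117 cells). The Gpnmb-led cells therefore made up most of the tumor WT class and the C1q-led cells most of the other 3. Cells led by Arg1, Ppbp, Pf4 and Saa3 were given no cell type name and kept apart as Arg1-led cells. They numbered 571 in tumor Rab37 KO and 36 in tumor WT, with 8 and 16 in the normal libraries. Alveolar macrophage-like cells numbered 253, 28, 718 and 999, with Chil3, a chitinase-like protein, between 12255 and 18811 CPM. Their markers were uneven. Of the 4 libraries, tumor WT held the least Ear1, Ear2, Siglecf, Marco, Krt79 and Plet1 in this class, but the most Chil3, Car4, F7 and Atp6v0d2. In the same library order Ear1 stood at 1115, 426.5, 932 and 1044 CPM, Plet1 at 1112, 703.5, 1429 and 1382 CPM, and Car4 at 149, 438, 241 and 185 CPM. Chil3 was also on the classical monocyte marker list.

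Transcripts of other cells were present in these classes. The neutrophil markers summed to 16310 CPM in macrophage-like cells of tumor Rab37 KO and 9595 CPM in those of tumor WT, with none of the markers at 0. Cells with at least 1% of UMIs from neutrophil markers made up 30.9% and 12.1% of these macrophage-like cells, and 53.2% and 41.7% of the Arg1-led cells. Adipocyte markers, which could bring in Fabp4, Lpl and Plin2, summed to 3.51 and 2.33 CPM in macrophage-like cells, with 3 and 4 of the markers at 0. T-like cells, which should lack most of these genes, held Apoe at 455 CPM in tumor Rab37 KO (30 cells) and 1550 CPM in tumor WT (29 cells). In these T-like cells Fabp5 was at 143 and 658 CPM, Trem2 at 17.8 and 106 CPM, and Gpnmb at 8.92 and 84.9 CPM. NK-like cells, another lymphocyte class (66 and 28 cells), held Apoe at 49.3 and 33.2 CPM, Fabp5 at 12.3 and 41.5 CPM and Gpnmb at 3.08 and 0 CPM, with 0 UMIs of Trem2 in both. B-like cells (65 and 55 cells) held more Apoe, at 1578 and 2527 CPM, but 12.0 and 21.5 CPM of Fabp5 and 0 UMIs of Gpnmb in both. Abca1 stood at 79.9 and 96.8 CPM in B-like cells, against 253 and 91.2 CPM in macrophage-like cells. The levels in T-like, B-like and NK-like cells differ, so they give no single level of free RNA for a library. After each cell was thinned to 1500 UMIs, 20.0% of tumor Rab37 KO and 21.4% of tumor WT T-like cells still held Apoe. The median depth of T-like cells was 5006 and 3125 UMIs, and that of macrophage-like cells 19068 and 11194 UMIs.

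Each gene had a class in which it was most abundant, and for 5 of the 10 that class was the same in every library, among classes of at least 10 cells in that library. Lpl, the lipase that frees fatty acids from triglyceride-rich lipoproteins, was highest in alveolar macrophage-like cells, at 2034 CPM in tumor Rab37 KO, 2124 CPM in tumor WT, 3284 CPM in normal Rab37 KO and 2849 CPM in normal WT. The next class held at most 519 CPM of Lpl in any library. Abcg1, an exporter of cholesterol to high-density lipoprotein, was highest there too, at 1111, 548, 1464 and 1463 CPM in the same order. Plin2, a coat protein of lipid droplets, stood at 1333, 895, 1382 and 1452 CPM in alveolar macrophage-like cells. In tumor WT that Plin2 level was close to the 848 CPM of macrophage-like cells, with intervals that overlap.

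Trem2, a lipid-binding receptor of myeloid cells, was highest in macrophage-like cells of every library, at 526, 891, 152 and 170 CPM. Apoe, the lipoprotein ligand that carries cholesterol out of macrophages, was likewise highest there, at 9592, 17984, 10967 and 8769 CPM. In normal WT, however, the 16 Arg1-led cells held 8537 CPM of Apoe, close to the macrophage-like level. Gpnmb, a lysosome-linked membrane glycoprotein, changed place with tissue. It was highest in macrophage-like cells of the tumors (425.5 CPM in Rab37 KO, 1379 CPM in WT) and in alveolar macrophage-like cells of normal lung (203 CPM in Rab37 KO, 165 CPM in WT).

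Fabp5, a cytosolic fatty acid carrier, was highest in macrophage-like cells of both tumors, while in normal Rab37 KO it peaked in 12 mature dendritic-like cells and in normal WT in alveolar macrophage-like cells. Mature dendritic-like cells of tumor WT (6 cells, 5870 CPM of Fabp5) and normal WT (4 cells, 2696 CPM) held more but were too few to be ranked. Fabp4, a close relative of Fabp5 and a target of PPARγ, was highest in alveolar macrophage-like cells of both tumors. In normal lung Arg1-led cells held more Fabp4 than alveolar macrophage-like cells, at 573 CPM in normal Rab37 KO (8 cells, too few to be ranked) and 723 CPM in normal WT (16 cells). Cd36, a scavenger receptor and fatty acid transporter, was shared by alveolar macrophage-like and nonclassical monocyte-like cells. In alveolar macrophage-like cells Cd36 stood at 376.5, 360, 328 and 341 CPM, and in nonclassical monocyte-like cells at 241, 182, 382 and 302 CPM. Abca1, which loads cholesterol onto apolipoprotein A-I, was highest in Arg1-led cells of both tumors and in macrophage-like cells of both normal lungs. Neutrophil-like cells held little Lpl, Cd36, Trem2 or Fabp4, at no more than 14.3 CPM of any of these in any library, but 265 to 567 CPM of Plin2.

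**Figure D1:**
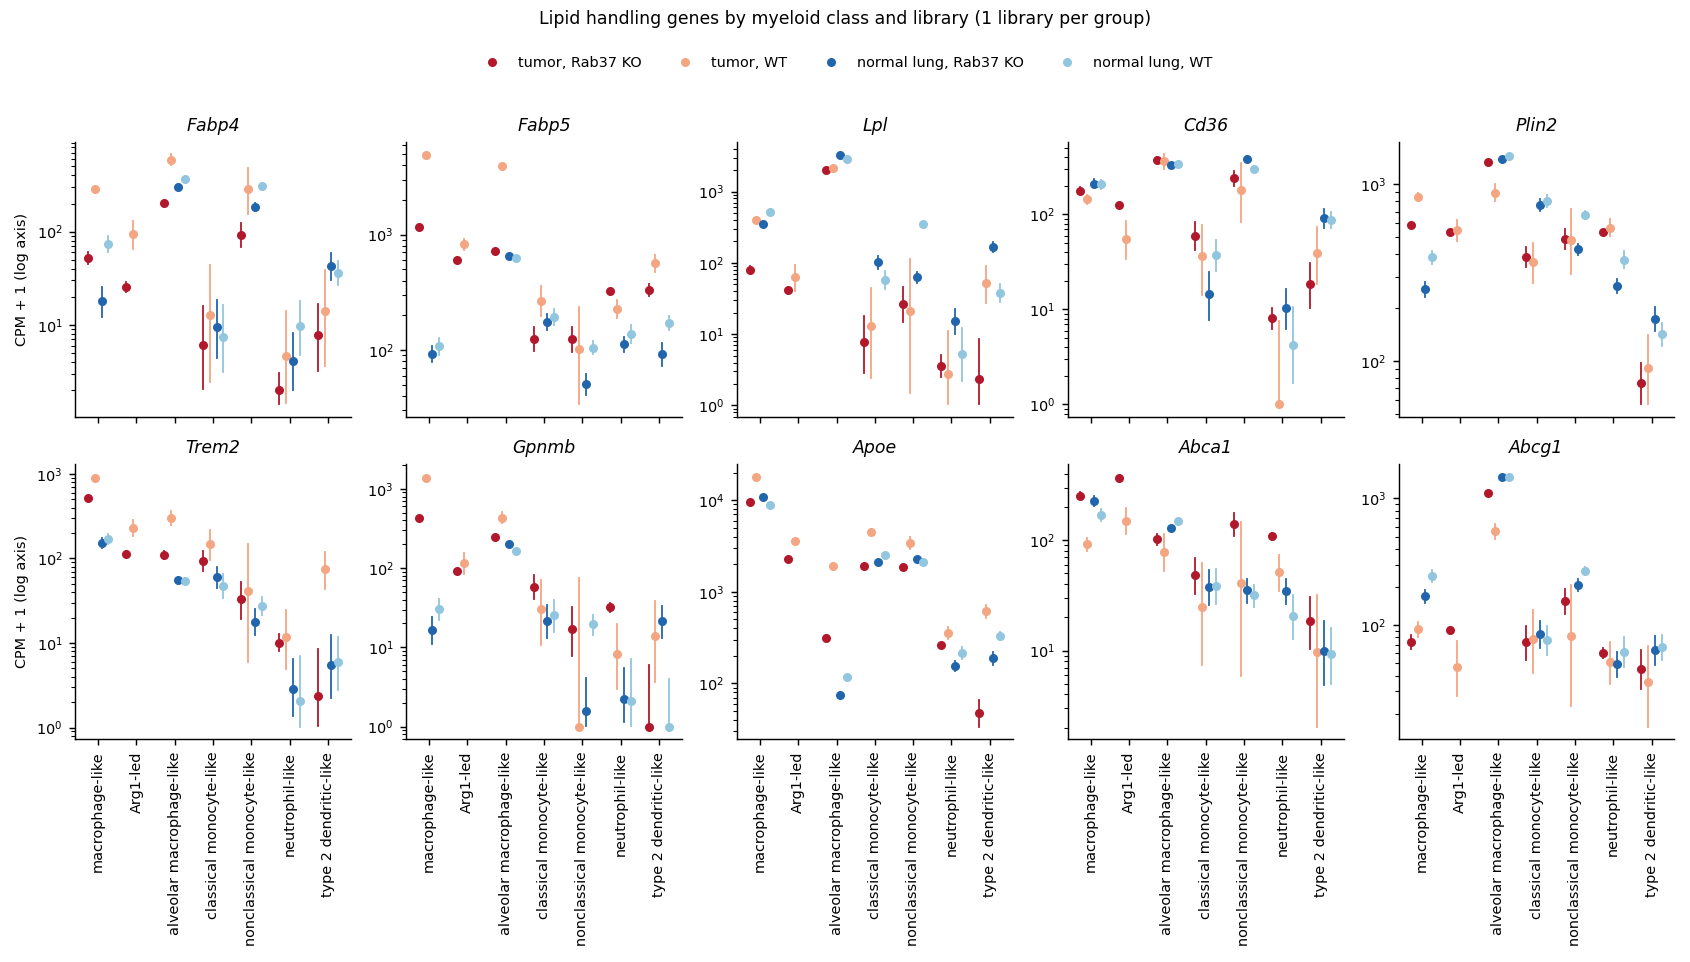
Level of each gene (CPM + 1 on a log axis, 1 panel per gene with its own scale) in 7 myeloid classes. Points are the 4 libraries, vertical bars are exact 95% Poisson intervals, and the Arg1-led cells of normal lung (8 and 16 cells) are not drawn; Lpl and Abcg1 peak in alveolar macrophage-like cells and Trem2 and Apoe in macrophage-like cells.

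The first comparison asked how the genes of tumor macrophages differ between mice without and with Rab37. In macrophage-like cells, 6 of the 10 genes were at least 1.5-fold lower in tumor Rab37 KO than in tumor WT and 1 was at least 1.5-fold higher. Over the 10769 genes with at least 10 UMIs, 9.85% were lower and 27.6% higher by the same rule. The members' median log2 ratio was -0.83, against a median of 0.21 over all these genes, so most genes leaned the other way on this scale. Scaled to that median instead, 7 members were lower, Plin2 among them at a ratio of 0.596.

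The fatty acid carriers and the lipase differed most. Fabp5 stood at 1151 CPM in tumor Rab37 KO and 4857 CPM in tumor WT, 4.22-fold lower (interval 4.07 to 4.38). Fabp4 stood at 50.7 CPM in tumor Rab37 KO and 282 CPM in tumor WT, 5.575-fold lower (4.70 to 6.64). Lpl stood at 79.4 CPM in tumor Rab37 KO and 396 CPM in tumor WT, 4.99-fold lower (4.35 to 5.74). None of these 3 pairs of intervals overlap. The uptake receptor Cd36, by contrast, was 1.23 times as high in tumor Rab37 KO (177 CPM) as in tumor WT (143 CPM). Plin2 was 0.691 times as high, at 586 CPM in tumor Rab37 KO and 848 CPM in tumor WT, just inside the 1.5-fold limit.

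Of the receptor and lysosome genes, Gpnmb was 3.24-fold lower (interval 3.04 to 3.45) and Trem2 1.695-fold lower (1.59 to 1.81) in tumor Rab37 KO. The lipoprotein gene Apoe was 1.875-fold lower (1.85 to 1.90). The cholesterol exporters went separate ways. Abca1 stood at 253 CPM in tumor Rab37 KO and 91.2 CPM in tumor WT, 2.78 times as high (2.38 to 3.26), whereas Abcg1 stood at 72.6 CPM and 91.65 CPM, a ratio of 0.792. Spp1 stood at 2041 CPM in tumor Rab37 KO and 8830 CPM in tumor WT, 4.33-fold lower.

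The class mixed its clusters differently in the libraries. When each cluster was given the same weight in both libraries, the Gpnmb ratio was 1.04 in place of 0.3085, that of Fabp5 0.551, that of Fabp4 0.535 and that of Lpl 0.2415. With this weighting Trem2 stood at 0.849, inside the 1.5-fold limit, and 4 members in place of 6 were lower. Within the Gpnmb-led cells alone (76 in tumor Rab37 KO, 150 in tumor WT), 5 members were lower and 1 higher, against 14.1% lower and 20.6% higher of 9499 genes. Fabp5 there stood at 2330 CPM in tumor Rab37 KO and 5198 CPM in tumor WT, and Lpl at 88.3 CPM and 410 CPM. Gpnmb itself stood at 1292 CPM and 1497 CPM, a ratio of 0.863, and Abca1 at 142 CPM and 90.2 CPM, a ratio of 1.58 (1.25 to 1.99). In the 89 tumor Rab37 KO and 7 tumor WT C1q-led cells, Lpl was 3.45-fold and Fabp5 2.12-fold lower, while Abca1 was 2.925 times as high and Trem2 0.994 times. There 4 members were lower and 2 higher, against 17.5% lower and 33.6% higher of 9706 genes.

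The Gpnmb-led cells were not uniform in tumor Rab37 KO. A sub-cluster led by Syngr1, Gpnmb and Trem2 (19 cells in tumor Rab37 KO, 67 in tumor WT) held Gpnmb at 3467 CPM in tumor Rab37 KO and 1788 CPM in tumor WT, and Fabp5 at 5632 CPM and 6627 CPM. A sub-cluster led by Apoe and Gpnmb (21 and 38 cells) held Gpnmb at 21.8 CPM in tumor Rab37 KO and 1185 CPM in tumor WT, and Fabp5 at 114.5 CPM and 3907 CPM. Lpl was lower in tumor Rab37 KO in each of these, at 115 CPM against 519 CPM of tumor WT in the first and 128 CPM against 335 CPM in the second. Another sub-cluster, led by Gpnmb and Saa3 (28 and 33 cells), held Gpnmb at 683 CPM in tumor Rab37 KO and 1316 CPM in tumor WT. Fabp5 in it stood at 1857 and 3201 CPM, and Lpl, from 1 and 47 UMIs, at 4.19 and 210 CPM. The remaining sub-cluster was shallow, with 8 and 12 cells and a median of 1104 UMIs. Within the class, UMIs were concentrated in few cells: the 10% of tumor Rab37 KO cells with most UMIs of the gene held 92.8% of the class's Gpnmb UMIs and 91.9% of its Fabp4 UMIs, against 52.8% and 75.8% in tumor WT. For Plin2 these shares were 37.1% and 34.4%. Without the cells rich in neutrophil markers, the ratios were 0.393 for Gpnmb, 0.2685 for Fabp5, 0.2285 for Lpl and 2.94 for Abca1.

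In Arg1-led cells, 4 members were lower and 3 higher in tumor Rab37 KO, close to the background of 24.9% lower and 27.1% higher of 11282 genes. Abca1 stood at 366 CPM in tumor Rab37 KO and 149 CPM in tumor WT, 2.45 times as high (interval 1.88 to 3.26). Cd36 stood at 124 CPM and 54.3 CPM, 2.275 times as high (1.47 to 3.74), and Abcg1 at 89.8 CPM and 46.2 CPM, 1.95 times (1.21 to 3.36). When cells were clustered at Leiden resolution 0.5, however, the ratios of Cd36 and Abcg1 were 0.864 and 0.932. Trem2 was 2.04-fold lower (1.62 to 2.55) and Apoe 1.57-fold lower (1.48 to 1.66). Plin2 barely differed, at 536 CPM and 549 CPM. The Fabp4 difference (24.7 CPM in tumor Rab37 KO, 92.3 CPM in tumor WT) rested on 1 tumor WT cell that held 91.2% of that library's Fabp4 UMIs in the class, and without the top cell of each library the ratio was 2.21.

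In alveolar macrophage-like cells, 5 members were lower and 1 higher in tumor Rab37 KO, against 14.9% lower and 29.7% higher of 9987 genes. Fabp5 stood at 716 CPM in tumor Rab37 KO and 3897 CPM in tumor WT, 5.44-fold lower (interval 5.09 to 5.82). Apoe stood at 316 CPM and 1903 CPM, 6.03-fold lower (5.46 to 6.65), and Trem2 at 110 CPM and 302 CPM, 2.74-fold lower. Fabp4 was 2.91-fold and Gpnmb 1.78-fold lower. Lpl, at 2034 CPM and 2124 CPM, and Cd36, at 376.5 CPM and 360 CPM, were near equal. Abcg1 was higher in tumor Rab37 KO, at 1111 CPM against 548 CPM in tumor WT, 2.025 times (1.755 to 2.35). Spp1 stood at 661 CPM and 6772 CPM, 10.25-fold lower. In tumor WT, 1 cell held 37.5% and 3 cells held 79.5% of the class's Spp1 UMIs. In tumor Rab37 KO, 1 cell held 14.6%.

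The tumor WT alveolar macrophage-like class was only 28 cells, 19 of them in the main alveolar cluster. Another 8 came from a cluster led by Retnla, Mmp12 and Spp1, which gave 9 of the 253 cells in tumor Rab37 KO. Fabp5 was among the leading genes of that cluster, and no alveolar marker was. Its marker score was 1.05 for alveolar macrophages and 0.515 for macrophages. The Spp1 ratio of the class includes that cluster. Platelet markers of the tumor WT class summed to 252 CPM, against 59.7 CPM in tumor Rab37 KO. In tumor WT that sum was Pf4 alone, with Ppbp, Gp9, Itga2b and Tubb1 at 0. Pf4 also served as a marker of macrophage-like cells, so the sum does not separate platelet from macrophage transcripts. The source of these Pf4 UMIs was not tested. In the main cluster alone, the ratios were 0.184 for Fabp5, 0.203 for Apoe, 0.393 for Trem2 and 1.65 for Abcg1, while that of Cd36 was 3.35 in place of 1.05. With clusters weighted alike, the Apoe ratio was 0.702 and 3 members in place of 5 were lower. In tumor WT, 1 of the 28 cells held 49.8% of the class's Apoe UMIs and 31.3% of its Fabp5 UMIs came from 1 cell. Without the top cell of each library, the ratios were 0.220 for Apoe, 0.225 for Fabp5 and 0.677 for Gpnmb, and 4 members were lower.

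**Figure D2:**
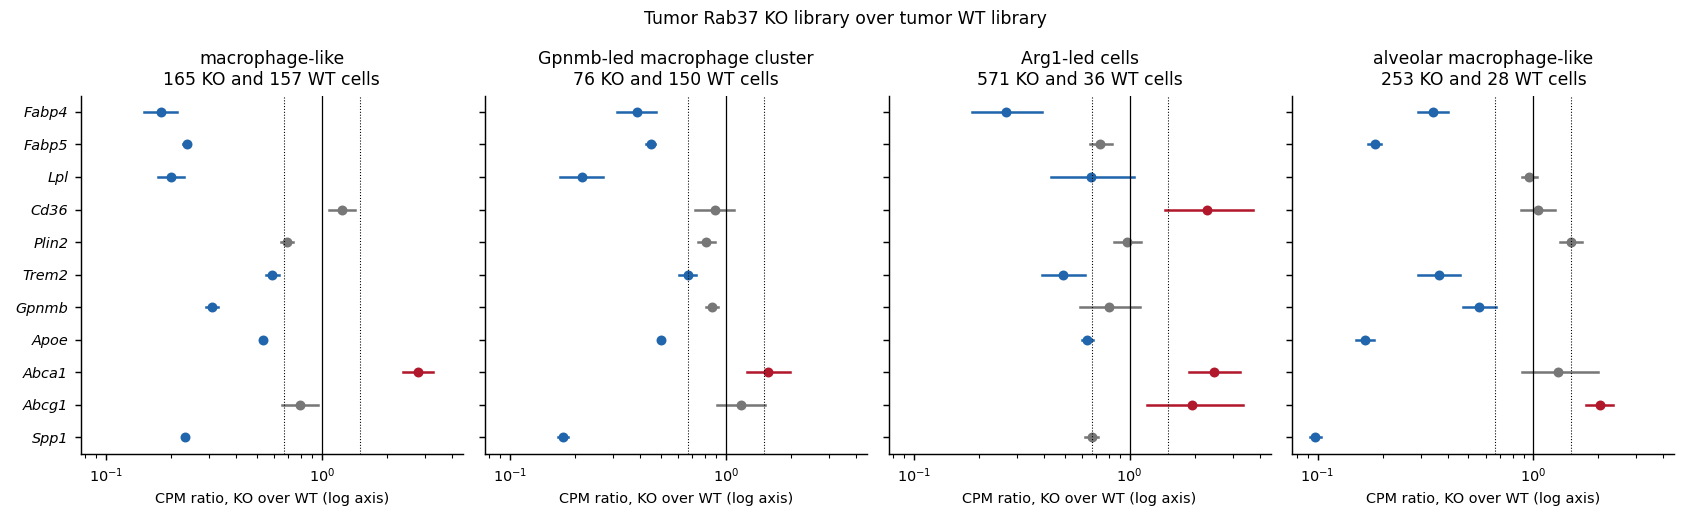
Ratio of CPM, tumor Rab37 KO over tumor WT (log axis), for the 10 genes and Spp1 in macrophage-like cells, their Gpnmb-led cluster, Arg1-led cells and alveolar macrophage-like cells. Points are ratios, bars exact 95% counting intervals, dotted lines 1.5-fold either way, blue lower and red higher by that rule; Fabp4, Trem2 and Apoe lie left of the line at 1 in all 4 panels and Abca1 lies right of it.

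Neutrophil-like cells of tumor Rab37 KO (1290 cells) against tumor WT (204 cells) had 3 of 9 measured members higher and 0 lower, with 21.7% of 9193 genes higher and 21.8% lower. Abca1 stood at 107 CPM in tumor Rab37 KO and 50.4 CPM in tumor WT, 2.13 times as high (interval 1.46 to 3.23), Gpnmb at 31.0 CPM and 7.20 CPM, and Cd36 at 7.12 CPM against 0 UMIs in tumor WT. In classical monocyte-like cells (69 and 20), 3 of 8 measured members were lower and 3 higher, against 20.1% lower and 23.1% higher of all genes. Apoe was the best counted of them, at 1917 CPM in tumor Rab37 KO and 4498 CPM in tumor WT. In nonclassical monocyte-like cells (60 and 14), 2 of 9 measured members were lower and 2 higher, against 28.7% lower and 29.8% higher of 5354 genes. Apoe stood at 1852 CPM in tumor Rab37 KO and 3432 CPM in tumor WT, and Fabp4 at 91.5 CPM and 283 CPM. In type 2 dendritic-like cells (50 and 19), 5 of 8 measured members were lower and 1 higher, against 24.1% lower and 18.9% higher of 6668 genes, with Apoe at 47.0 CPM in tumor Rab37 KO and 615 CPM in tumor WT.

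In normal lung both libraries held cells of both sexes. Fewer members were called between the genotypes there than in tumor in macrophage-like and alveolar macrophage-like cells, but more in nonclassical monocyte-like cells. The shares of all genes called differed too, so the counts have unlike backgrounds. In tumor 9.85% of genes were lower and 27.6% higher in macrophage-like cells. These shares were 14.9% and 29.7% in alveolar macrophage-like and 28.7% and 29.8% in nonclassical monocyte-like cells. Those of normal lung follow. In macrophage-like cells (139 in normal Rab37 KO, 127 in normal WT), 3 members were lower and 0 higher in normal Rab37 KO, against 10.5% lower and 10.9% higher of 10243 genes. Fabp4 stood at 16.9 CPM in normal Rab37 KO and 72.4 CPM in normal WT, 4.28-fold lower (interval 2.78 to 6.81), from 27 and 102 UMIs. Plin2 was 1.525-fold lower (1.34 to 1.74) and Gpnmb 1.86-fold lower (1.10 to 3.19). Fabp5 (92.1 CPM and 106.5 CPM), Trem2 (152 CPM and 170 CPM) and Cd36 (210 CPM and 207 CPM) had overlapping intervals. Apoe, at 10967 CPM in normal Rab37 KO and 8769 CPM in normal WT, was 1.25 times as high (1.22 to 1.28). Abca1, at 227 CPM and 168 CPM, was 1.35 times as high. The count depended on the cells taken: 4 members were lower among cells with Xist alone and 7 among cells with Y-linked UMIs alone.

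In alveolar macrophage-like cells of normal lung (718 and 999), 1 member was lower and 0 higher, against 6.21% lower and 3.69% higher of 11977 genes. That member was Apoe, at 73.3 CPM in normal Rab37 KO and 116 CPM in normal WT. Abcg1 stood at 1464 CPM and 1463 CPM, a ratio of 1.00 (interval 0.978 to 1.02), and the other 8 members lay between 0.814 and 1.235 times. In nonclassical monocyte-like cells (248 and 330), 6 members were lower and 0 higher in normal Rab37 KO, against 11.8% lower and 8.45% higher of 9912 genes. Lpl stood at 61.7 CPM in normal Rab37 KO and 351.5 CPM in normal WT, 5.70-fold lower (4.67 to 7.02), and Fabp5 at 49.3 CPM and 104 CPM, 2.11-fold lower (1.65 to 2.72). Lpl was found in only 17 of the normal Rab37 KO and 40 of the normal WT cells. A cluster led by Gdf15, Adgre4 and Tusc1, with Lpl among its leading genes and a marker score for alveolar macrophages (1.08) close to that for nonclassical monocytes (1.18), put 2 cells of normal Rab37 KO and 16 of normal WT into the class. These held 76.4% and 92.2% of the class's Lpl UMIs. Without that cluster Lpl stood at 14.9 CPM in normal Rab37 KO and 31.1 CPM in normal WT, a ratio of 0.477 in place of 0.1755. The count of 6 lower members and the Fabp5 ratio include that cluster. Fabp5 stood at 622 CPM in alveolar macrophage-like cells of normal WT.

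The second comparison set tumor against normal lung within a genotype, and it uses the same tumor libraries as the first. In macrophage-like cells of WT mice, 6 members were higher in tumor and 2 lower, against 17.5% higher and 33.2% lower of 10287 genes, whose median log2 ratio was -0.20. In those of Rab37 KO mice, 5 were higher and 2 lower, against 21.8% higher and 21.7% lower of 10906 genes. Gpnmb was 27.2 times as high in the Rab37 KO tumor as in normal Rab37 KO lung (interval 18.3 to 42.1), and 47.4 times as high in the WT tumor as in normal WT lung (34.8 to 66.1). Fabp5 was 12.5 times (10.6 to 14.8) and 45.6 times (38.8 to 53.9) as high, in the same order. Trem2 was 3.45 and 5.25 times, Fabp4 2.995 and 3.90 times, and Plin2 2.32 and 2.20 times as high. The Fabp4 ratio in Rab37 KO turned with the classes, at 0.841 with classes from each cell's own markers and 0.912 at resolution 2.

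Apoe parted the genotypes in this contrast, at 0.875 times the normal level in the Rab37 KO tumor and 2.05 times in the WT tumor. Abca1 did so the other way, at 1.12 times and 0.542 times. Abcg1 was lower in both tumors, 2.32-fold in Rab37 KO and 2.67-fold in WT, but in Gpnmb-led cells alone, with 10 and 3 Abcg1 UMIs in the normal libraries, its ratios were 1.125 and 1.08. Lpl was 4.445-fold lower in the Rab37 KO tumor and stood at 0.763 times the normal level in the WT tumor. Restricted to cells with Y-linked UMIs alone in Rab37 KO and with Xist alone in WT, the Gpnmb ratios were 31.0 and 36.2 and the Fabp5 ratios 10.0 and 39.6. Since the normal class is mostly C1q-led and the tumor WT class mostly Gpnmb-led, these ratios compare different clusters. Among C1q-led cells alone, 4 members were higher and 2 lower in the Rab37 KO tumor, against 23.9% higher and 21.6% lower of 10556 genes, and 4 were higher and 5 lower in the WT tumor (7 cells), against 22.3% higher and 33.0% lower of 9002 genes. There Plin2 stood at 0.987 times the normal level in WT, and Fabp4, from 7 tumor UMIs, at 0.474 times.

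In alveolar macrophage-like cells, 2 members were higher and 1 lower in the Rab37 KO tumor, against 11.5% higher and 8.18% lower of 11433 genes. In the WT tumor (28 cells), 5 were higher and 3 lower, against 18.3% higher and 33.1% lower of 11373 genes. Apoe was 4.30 times as high in the Rab37 KO tumor as in normal Rab37 KO lung (interval 3.91 to 4.74) and 16.4 times as high in the WT tumor as in normal WT lung (14.97 to 18.0). Trem2 was 2.035 and 5.68 times as high, and Fabp5 1.09 and 6.26 times. The class includes the cluster led by Retnla, Mmp12 and Spp1, which gave 8 of 28 cells in tumor WT and 8 of 999 in normal WT. In Rab37 KO that cluster gave 9 of 253 tumor and 11 of 718 normal lung cells. The ratios of this contrast therefore do not separate the mix of clusters from levels within a cluster. Apoe UMIs in this class sat in few cells, with the 10% of cells richest in Apoe holding 95.9% in tumor Rab37 KO, 90.25% in tumor WT, 87.1% in normal Rab37 KO and 91.5% in normal WT. Lpl was 1.615-fold lower in the Rab37 KO tumor and Abcg1 2.67-fold lower in the WT tumor. Higher Apoe in tumor was not particular to this class. T-like cells held Apoe at 455 CPM in tumor Rab37 KO and 31.7 CPM in normal Rab37 KO. In WT they held 1550 CPM in tumor and 26.45 CPM in normal lung. NK-like cells differed less, at 49.3 and 54.8 CPM in Rab37 KO and 33.2 and 23.0 CPM in WT, tumor first. The source of Apoe in these cells was not tested.

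**Figure D3:**
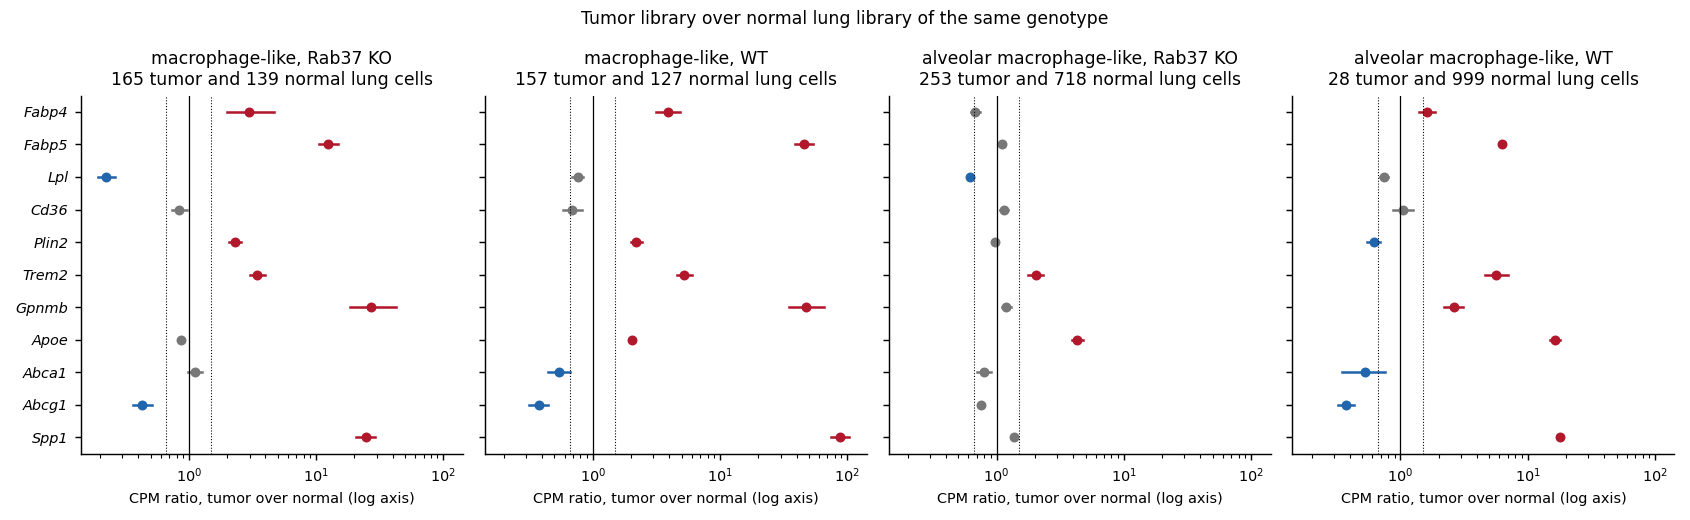
Ratio of CPM, tumor over normal lung of the same genotype (log axis), for the 10 genes and Spp1 in macrophage-like and alveolar macrophage-like cells of Rab37 KO and WT mice. Points are ratios, bars exact 95% counting intervals and dotted lines 1.5-fold either way; Fabp5 and Gpnmb in macrophage-like cells lie at 12.5 and 27.2 in Rab37 KO and at 45.6 and 47.4 in WT.

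Co-detection with Spp1 was read in cells thinned to 1500 UMIs, so that deep cells did not count as carrying every gene. Spp1 was then found in 75 of 136 macrophage-like cells of tumor Rab37 KO (55.15%) and 99 of 143 of tumor WT (69.2%), and in 75.8% and 79.6% of all macrophage-like cells before thinning. T-like cells held Spp1 in 10.0% and 3.57% after thinning. Cells with Spp1 held a mean of 3.35 of the 10 members in tumor Rab37 KO and 4.74 in tumor WT, while cells without it held 2.66 and 3.09 (SD over cells 1.66 and 1.60 with Spp1, 1.26 and 1.76 without). At least 5 members were found in 24.0% and 56.6% of cells with Spp1 and in 8.20% and 20.45% of cells without it.

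In tumor WT, 9 of the 10 genes were found more often in cells with Spp1, 4 of them with intervals that did not overlap. Gpnmb was in 65.7% of cells with Spp1 (interval 55.4% to 74.9%) and 29.55% of cells without (16.8% to 45.2%). Fabp5 was in 86.9% and 56.8%, Plin2 in 70.7% and 43.2%, and Lpl in 27.3% and 6.82%. In the same library the cells with Spp1 had been deeper before thinning, with a median of 15237 against 7975 UMIs. In tumor Rab37 KO the medians were 23307 and 23621 UMIs, and 9 genes were again found more often with Spp1, but only Gpnmb had intervals apart, at 26.7% (17.1% to 38.1%) and 6.56% (1.82% to 15.9%). Fabp5 there was in 42.7% of cells with Spp1 and 39.3% of cells without. Abcg1 was the exception in both libraries, found in 10.7% and 13.1% in tumor Rab37 KO and in 11.1% and 13.6% in tumor WT. Whether the link with Spp1 differs between the genotypes was not tested.

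Arg1-led cells of tumor Rab37 KO held Spp1 in 289 of 567 cells. Of the members only Apoe had intervals apart, at 74.7% with Spp1 and 62.95% without, and this was no longer so after thinning to 1000 or to 3000 UMIs. In alveolar macrophage-like cells the number of members per cell was close with and without Spp1. In tumor Rab37 KO, 79 cells with Spp1 held a mean of 3.94 members and 174 cells without it 3.93, and in normal WT 301 and 692 cells held 4.26 and 4.14. No member had intervals apart in alveolar macrophage-like cells of any library.

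**Figure D4:**
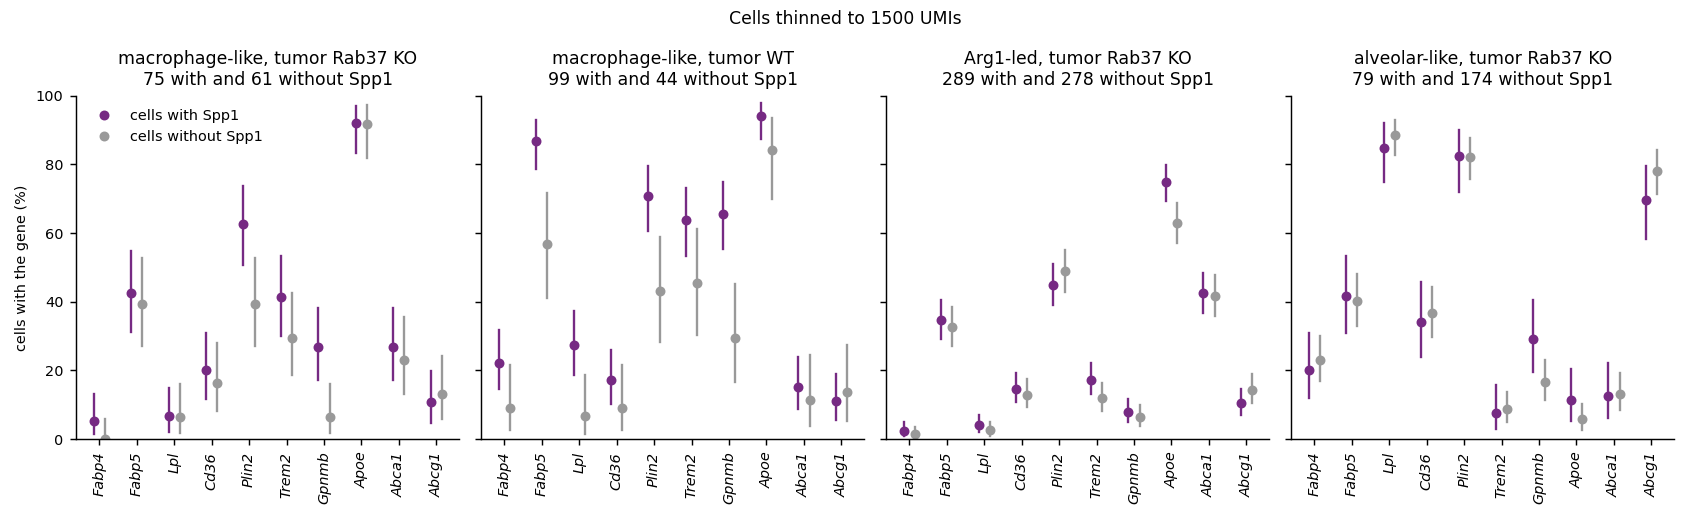
Percent of cells with at least 1 UMI of each gene among cells with and without Spp1, all thinned to 1500 UMIs, in 3 tumor Rab37 KO classes and macrophage-like cells of tumor WT. Points are shares and bars exact 95% binomial intervals; in tumor WT macrophage-like cells Gpnmb is at 65.7% with and 29.55% without Spp1, while in alveolar macrophage-like cells the intervals of every pair overlap.

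Other lipid genes were read in 7 lists, none of which holds a member, in macrophage-like cells of tumor Rab37 KO against tumor WT, beside the 27.6% higher and 9.85% lower of all genes. These values are for the whole class, in which 76 of 165 tumor Rab37 KO and 150 of 157 tumor WT cells were Gpnmb-led. They do not separate the mix of clusters from levels within a cluster, and Syngr1 is itself a leading gene of the Gpnmb-led cells. Of 15 measured cholesterol synthesis genes, 7 were lower and 2 higher (median log2 ratio -0.42), among them Fdps, the farnesyl diphosphate synthase, at 26.35 CPM in tumor Rab37 KO and 52.1 CPM in tumor WT. Of 9 fatty acid synthesis genes, 6 were higher and 1 lower (median 0.73), with Acly, which makes cytosolic acetyl-CoA, at 70.0 CPM and 41.9 CPM, and the elongase Elovl1 at 58.0 CPM and 34.9 CPM. Of 20 lipid-associated macrophage genes, 6 were lower and 3 higher (median -0.25). Cd9, a tetraspanin, stood at 621 CPM in tumor Rab37 KO and 1279 CPM in tumor WT, Syngr1 at 102 CPM and 254 CPM, and Itgax, the integrin CD11c, at 43.3 CPM and 106 CPM.

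Of 14 efflux and liver X receptor genes, 5 were higher and 2 lower (median 0.17). Lipa, the lysosomal acid lipase, stood at 185 CPM in tumor Rab37 KO and 386 CPM in tumor WT, Arl4c at 163 CPM and 105 CPM, and Mylip, the ligase that degrades the LDL receptor, at 50.7 CPM and 26.5 CPM. Of 10 lipid droplet genes, 3 were higher and 2 lower (median 0.08), with Soat1, which esterifies cholesterol for storage, at 174.5 CPM and 337 CPM, Dgat1, which makes triglyceride, at 58.3 CPM and 27.45 CPM, and the lipase Pnpla2 at 61.5 CPM and 42.3 CPM. Of 12 uptake genes, 2 were higher and 1 lower (median -0.04), with the scavenger receptor Msr1 at 302 CPM and 197 CPM, Acsl5 at 51.5 CPM and 40.5 CPM and Acsl4 at 54.5 CPM and 43.3 CPM. Of 13 fatty acid oxidation genes, 0 were higher and 2 lower (median -0.21), with Acadl at 73.2 CPM and 89.8 CPM, Hadha at 81.1 CPM and 67.9 CPM and Acaa2 at 46.85 CPM and 54.4 CPM.

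The genes whose levels ran most like each member were taken over 40 class and library sums of at least 30 cells, as Pearson's r of log2(CPM + 10) among 4101 genes. The sums share libraries and cells of neighbouring states, so r is a description. Lpl ran most like Axl (0.943), Tmbim1 and Lima1, and Abcg1 most like Lilra5 (0.932), Cidec and Acaa1b. Plin2 ran most like Lyz2 (0.925), Ccl6 and Sirpa. Trem2 ran most like Fcgr1 (0.883), Ms4a7 and Mfsd1, and Gpnmb most like Lhfpl2 (0.869), Trem2 (0.853) and Cndp2. Fabp5 ran most like Gpnmb (0.839), Creg1 and Lhfpl2, and Fabp4 most like Ear2 (0.864), Abhd12 and Tcf7l2. For Cd36 the likest were Cdc42bpb (0.863), F11r and Tppp3, and for Apoe Lgmn (0.827), Blvrb and Apobec1. Abca1 had the weakest likeness, at 0.755 with Rhob, followed by Ctsl and Adam9.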

How the data were processed

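The authors deposited raw UMI counts, a matrix of genes by barcodes for each library, made with the Chromium 3′ v2 kit, per the labels' protocols. Reads were counted on build mm10, per the submitters' processing notes, with software 3.1.0 for the tumor and 3.0.1 for the normal libraries, per the file headers. GENCODE vM21 held 99.6% of the gene identifiers.

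Barcodes below 200 genes or above 10% mt- UMIs were dropped, which with the doublets left 13078 cells of 14396. Scrublet removed 4, 3, 80 and 179 doublets in tumor Rab37 KO, tumor WT, normal Rab37 KO and normal WT. It marked 0.147% of tumor Rab37 KO cells, so doublets may remain there. Cells were clustered with scanpy 1.11.5 (2000 variable genes without the members, Spp1, lipid lists, Rab37 and sex-linked genes, 30 components, 15 neighbours, Leiden resolution 1). Clusters with mixed marker scores were clustered again at 0.5. Names ending in "-like" rest on marker lists. The splitting rule and the separate Arg1-led class were set after clusters had been seen.

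UMIs were summed per class and library, with no ratio where a sum was under 40000. The recomputed Abcg1 ratio of Gpnmb-led cells in tumor WT against normal WT did not keep this limit. A gene was measured from 10 UMIs over both libraries and called at 1.5-fold. Intervals are exact: Poisson for levels, conditional binomial for ratios, Clopper-Pearson for shares. They cover counting error only, not animals or libraries. The functions were tested on simulated data. Named genes were the members and Spp1, up to 3 genes a list, ranked by size of ratio, with 50 CPM in either library, and the 3 genes most like each member. The members and lists were chosen with earlier results of these data known. There were 18 alternatives, and 4 more added after seeing the data (each macrophage cluster alone, the main alveolar cluster alone, without a shallow macrophage cluster, nonclassical monocyte-like cells without the cluster of mixed score).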

Additional observations from a re-analysis of the deposited data

Results flagged for a closer look

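In type 2 dendritic-like cells the Rab37 KO over WT ratio pointed in opposite directions in tumor and normal lung for Lpl and Spp1, with counting intervals on either side of 1. The Lpl ratio was 0.026 (interval 0.000608 to 0.176) in tumor and 4.46 (3.17 to 6.37) in normal lung. The Spp1 ratio was 0.0848 (0.0522 to 0.133) in tumor and 10.1 (6.71 to 15.6) in normal lung. The tumor values rest on 50 Rab37 KO and 19 WT cells, with 1 and 12 Lpl UMIs and 25 and 92 Spp1 UMIs, and 94.6% of the Spp1 UMIs of tumor WT came from 1 cell. In normal lung Spp1 was found in 13 of 66 normal Rab37 KO and 17 of 111 normal WT cells, and Lpl in 12 and 13 cells. In normal Rab37 KO, 1 cell held 68.3% of the Spp1 UMIs and 2 cells held 90.45%, while 1 cell held 42.2% of the Lpl UMIs. After thinning to 1500 UMIs, Spp1 was found in 3.125% of normal Rab37 KO and 4.505% of normal WT cells. The difference between the contrasts was not tested, since each is 1 library against 1.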

How the results depend on the processing

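Of 153 recomputed counts over 14 results, 125 stayed within 1.5 times the reported count and 28 did not. Of all 766 recomputed values 11 changed direction. In macrophage-like cells of tumor Rab37 KO against tumor WT, the number of lower members ran from 4 to 7 of 10. The cause of the changes listed here was not tested.

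The Gpnmb ratio of that comparison became 1.04 with clusters weighted alike. In Arg1-led cells the Fabp4 ratio became 2.21 without the top cell of each library, and at Leiden resolution 0.5 Cd36 became 0.864 and Abcg1 0.932; the number of lower members was 2 at 2-fold and 1 without the top cells. In alveolar macrophage-like cells 3 were lower with clusters weighted alike. In neutrophil-like cells the number of lower members was 1 with doublets kept, at resolution 2, with no filter on low counts and with the mean of CPM per cell, 3 at resolution 0.5 and 5 with classes from each cell's own markers.

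In normal Rab37 KO against normal WT, macrophage-like cells had 5 lower members with doublets kept or without the top cells, 1 at 2-fold and 7 in male cells alone, and Gpnmb became 1.19 with classes from own markers. Alveolar macrophage-like cells had 0 at 2-fold. In tumor WT against normal WT, Fabp4 became 0.474 and Plin2 0.987 in C1q-led cells alone, Abcg1 became 1.08 in Gpnmb-led cells alone, and alveolar macrophage-like cells had 1 lower member at 2-fold or with the mean of CPM per cell. In tumor Rab37 KO against normal Rab37 KO, Fabp4 became 0.841 with own markers and 0.912 at resolution 2, and Abcg1 became 1.125 in Gpnmb-led cells alone. Alveolar macrophage-like cells there had 0 lower members at 2-fold and 2 with doublets kept, at most 5% mt- UMIs, the mean of CPM per cell, median-ratio scaling or without the top cells.

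Members found more often with Spp1 by separate intervals in tumor Rab37 KO numbered 6 of 10 in macrophage-like cells without thinning, 0 in Arg1-led cells at 1000 or 3000 UMIs and 7 without thinning, and 2 in alveolar macrophage-like cells without thinning or from 3 Spp1 UMIs. At resolution 0.5 no macrophage-like class formed, so it has no value there, and Gpnmb-led cells alone gave no ratio where a normal library held 0 UMIs. No paired analysis was possible because each group is 1 library. With 1 library a group, differences between animals are not measured, and the 28 alveolar macrophage-like and 36 Arg1-led cells of tumor WT limit the values that rest on them.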

Other observations

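Mature dendritic-like cells gave no ratio, since tumor Rab37 KO held 0 of them and those of normal WT summed to 35985 UMIs, under the 40000 needed. In these cells Fabp5 stood at 5870 CPM in 6 cells of tumor WT, 1335 CPM in 12 cells of normal Rab37 KO and 2696 CPM in 4 cells of normal WT. Lpl stood at 388 CPM and 367.5 CPM in fibroblast-like cells of normal Rab37 KO (82 cells) and normal WT (40 cells). Endothelial-like cells of normal lung held Cd36, which transports fatty acids across capillaries, at 1240 CPM in normal Rab37 KO (58 cells) and 1657 CPM in normal WT (21 cells). Fabp4 in the same endothelial-like cells stood at 59.7 CPM and 859 CPM. Tumor-cell-like cells (15 in tumor Rab37 KO, 5 in tumor WT) held Spp1 at 1415 CPM and 1745 CPM, with Fabp5 at 232 CPM and 129 CPM and Apoe at 29.3 CPM and 16.1 CPM.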
